A study of Ovis aries with 15 samples.

Results

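Expression of the 10 genes that encode the enzymes of de novo fatty acid synthesis and desaturation (FASN, ACACA, ACSS2, ACLY, IDH1, ME1, SCD, ELOVL5, ELOVL6 and FADS1) was compared between late pregnancy and lactation in the ovine mammary gland. The genes were chosen by their role in the pathway, with earlier results of these data known, and all 10 were found by symbol among 24691 features. Mammary tissue of 2-year-old primiparous Romney ewes was taken by needle biopsy at day 135 of gestation and at day 15 post partum, and RNA of several ewes was pooled for each of 9 late pregnancy and 6 lactation libraries. The ewes themselves were all managed alike on pasture and carried no treatment of their own. They were daughters of dams fed ad libitum (HM), at maintenance (MM) or below maintenance (LM) from early gestation to day 50, and all 3 groups of dams were then fed at maintenance. Each dam group had 3 late pregnancy pools and 2 lactation pools. The labels give 3 ewes to a late pregnancy pool and 2 to a lactation pool, and the study's methods give 3 to both. Per the methods, ewes were sampled in late pregnancy and again in lactation, but which ewes entered a pool is not stated. A late pregnancy and a lactation pool may thus share ewes, and the main tests treat the 15 libraries as independent. A pool averages its ewes, so the spread between libraries is that between pools.

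The mammary gland of a lactating ruminant makes the short and medium chain fatty acids of milk from acetate taken up from blood, and takes most of its longer chains from circulating lipid. ACSS2 activates cytosolic acetate to acetyl-CoA, whereas ACLY releases acetyl-CoA from citrate, the route that glucose carbon takes in non-ruminants. ACACA carboxylates acetyl-CoA to malonyl-CoA, FASN builds the chain, and IDH1 and ME1 yield NADPH in the cytosol. SCD places a double bond in stearate and palmitate, ELOVL6 lengthens palmitate to stearate, and FADS1 and ELOVL5 desaturate and lengthen polyunsaturated fatty acids.

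The total of reads on genes ran from 7597938 to 19823166 over the late pregnancy pools and from 10352962 to 25679416 over the lactation pools. The 7 milk protein genes (CSN2, CSN1S1, CSN1S2, CSN3, LALBA, BLG and GLYCAM1) took 13.7 to 23.4% of the exon reads of a late pregnancy library and 71.3 to 75.8% of those of a lactation library. Every level below is therefore given in RPKM computed with library sizes scaled by TMM (reads per kilobase of exon and relative to the scaled library size, here TMM-scaled RPKM), under which the median tested gene hardly differed between states (log2 change -0.03). Epithelial markers were present in both states, with KRT19 at 456 ± 81.9 (SD, n = 9) in late pregnancy and 694 ± 86.7 (SD, n = 6) in lactation, but they did not move as 1: of the 9 luminal markers 4 were called higher, 2 were called lower and 3 were not called, with KRT7 falling from 183 ± 24.4 to 84.3 ± 6.93 (log2 change -1.12, adjusted p = 5.5e-10). Lactation pool 1 of HM stood apart from the other lactation pools on the second principal component, which held 2.0% of the variance, and had the lowest milk protein share of the 6. Leaving it out gave the same counts of members called.

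Of the 10 genes, 8 were higher in lactation, 1 was lower and 1 was not called at an adjusted p under 0.05. Over all 13345 tested genes, 33.1% were called higher and 35.2% lower, so a call alone sets a gene little apart from the rest. The size of the change did so more: 8 of the 10 rose by more than 1 on the log2 scale, against 9.13% of tested genes, and 6 of the 10 rose by more than 2, against 3.21%. Their median log2 change was 2.55, beside -0.03 over all tested genes. The lowest lactation library lay above the highest late pregnancy library for 8 of the 10 genes, a pattern seen in 20.2% of tested genes, while for ACLY and ELOVL5 the states overlapped. In bulk tissue, fewer cells of a type and less RNA per cell cannot be told apart, and the same holds for more of either.

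**Figure D1:**
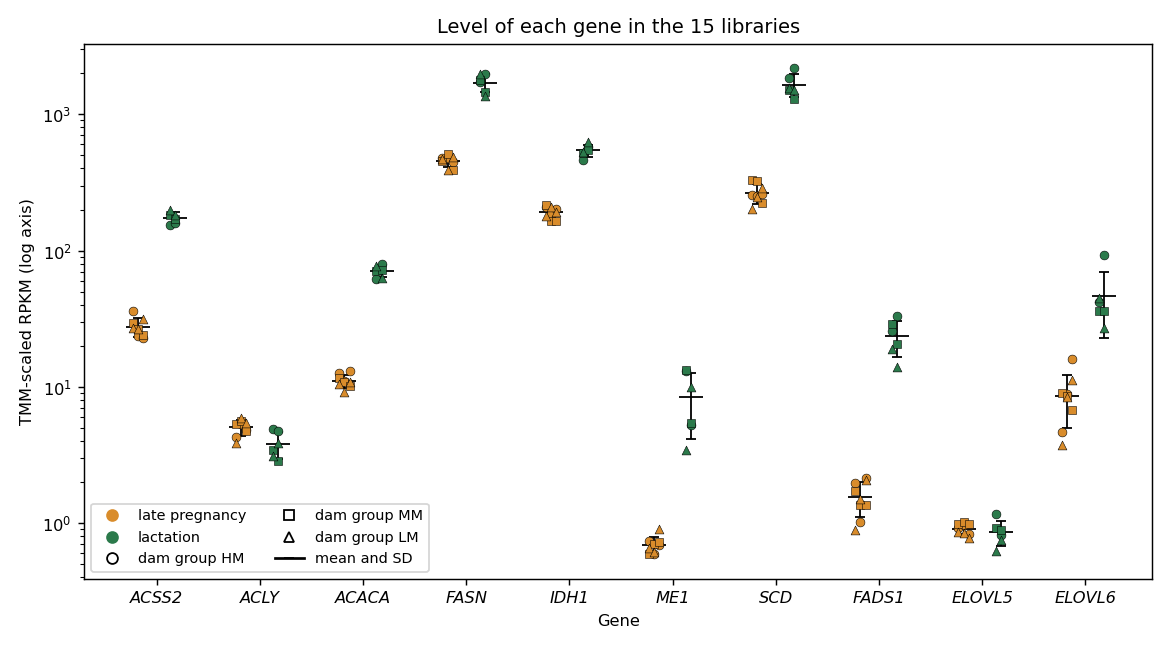
Level of each gene in TMM-scaled RPKM (log axis) in the 15 libraries, late pregnancy in orange and lactation in green, with symbols for the dam groups and black bars for the mean and SD of a state. For 8 genes the green points lie wholly above the orange ones, with FADS1 moving from 1.56 to 23.5 on average, while ACLY and ELOVL5 overlap.

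The 2 sources of cytosolic acetyl-CoA moved apart. ACSS2 (chr13:41740732-41798167, 16 exons) lay at 22.9, 26.6 and 36.0 TMM-scaled RPKM in the lowest, median and highest late pregnancy library, and at 153, 176 and 199.8 in lactation. Every lactation library was at least 4 times the highest of late pregnancy. The log2 change was 2.66 ± 0.09 (SE, adjusted p = 2.8e-15), or 6.33-fold. ACLY (chr11:41537705-41574967, 28 exons) lay at 3.86, 5.36 and 5.95 in late pregnancy and at 2.86, 3.64 and 4.92 in lactation. The ranges overlapped, with both HM lactation pools (4.92 and 4.73) inside the late pregnancy range and the lowest late pregnancy library, LM pool 1, at the level of the third highest lactation pool. The log2 change of ACLY was -0.44 ± 0.12 (SE, adjusted p = 0.0036), and 29.1% of tested genes had a lower one. The gene was counted from 67 to 583 exon reads a library.

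Within a library, a ratio of 2 genes does not depend on how libraries are scaled. The ratio of ACSS2 to ACLY reads per kilobase was 4.43 to 8.33 in late pregnancy and 31.2 to 64.1 in lactation. Its geometric mean thus rose 8.55-fold, from 5.44 to 46.5 (exact two-sided permutation test of the state labels, p = 0.0002, the smallest this test can give, and 0.0002 after adjustment over 6 ratios). The HM lactation pools had the lowest ratios of the 6, 31.2 and 33.6.

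Among 10 tested genes of acetyl-CoA and citrate supply, 7 were called higher and 2 lower with TMM (all tested genes: 33.1% and 35.2%). The counts were 1 and 9 when libraries were scaled by their size alone (all tested genes: 2.65% and 95.2%). ACSS3, an acyl-CoA synthetase of mitochondria, rose from 12.8 ± 1.76 (SD, n = 9) to 68.3 ± 7.64 (SD, n = 6), a log2 change of 2.42 (adjusted p = 5.8e-15). ACO1, the cytosolic aconitase, which interconverts citrate and isocitrate, rose from 53.4 ± 5.21 to 127.6 ± 6.71. SLC25A1, which carries citrate out of mitochondria, rose from 13.3 ± 2.06 to 24.2 ± 4.01. The 2 that fell were IDH2, the mitochondrial NADP-dependent isocitrate dehydrogenase, from 12.4 ± 1.03 to 6.64 ± 0.98, and PC, pyruvate carboxylase, from 17.7 ± 2.90 to 11.2 ± 1.49.

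The committed step and the synthase both rose, and the first rose more. ACACA (chr11:13017849-13262180, 58 exons) lay at 9.17, 10.8 and 13.1 in late pregnancy and at 62.0, 71.6 and 79.2 in lactation. FASN (chr11:49940273-49956419, 39 exons) lay at 387, 470.3 and 508 in late pregnancy and at 1357, 1744 and 1975 in lactation. Both were well apart between the states. The log2 change was 2.67 ± 0.08 (SE, adjusted p = 3e-16) for ACACA, or 6.38-fold, and 1.91 ± 0.09 (SE, adjusted p = 2.5e-13) for FASN, or 3.75-fold. FASN reads per kilobase exceeded those of ACACA 34.2 to 47.1 times in late pregnancy and 20.2 to 27.7 times in lactation. The geometric mean of that ratio fell from 41.1 to 24.04 (exact permutation p = 0.0002, adjusted p = 0.0002). The coefficient of variation of both genes was 9.26 to 15.0% within a state. The median tested gene had 12.3% in late pregnancy and 15.8% in lactation.

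Of 13 tested accessory genes of these 2 steps, 6 were called higher and 1 lower with TMM (all tested genes: 33.1% and 35.2%). The counts were 3 and 5 with upper quartile scaling, and 0 and 13 by library size alone (all tested genes: 2.65% and 95.2%). The count lower was 2 without lactation pool 2 of HM or 1 of MM, or late pregnancy pool 1 of LM or 2 or 3 of MM, and the count higher was 4 without lactation pool 1 of LM and with the replicate block. Those with the largest changes were subunits of AMP-activated kinase, the kinase that phosphorylates and inactivates acetyl-CoA carboxylase. PRKAA2, a catalytic subunit, rose from 1.80 ± 0.37 to 4.29 ± 0.93, PRKAB1 from 33.5 ± 3.53 to 61.9 ± 6.96 and PRKAG1 from 17.4 ± 1.28 to 26.2 ± 1.32. PRKAG2 fell from 11.0 ± 1.24 to 6.92 ± 1.17. The subunits PRKAA1 and PRKAB2 were not called (adjusted p = 0.42 and 0.14). THRSP, a lipogenic regulator known from non-ruminant mammary gland, was at 1.30 ± 0.41 and 0.85 ± 0.40 and was not called (adjusted p = 0.075). ACACB, the carboxylase of the outer mitochondrial membrane, had at most 28 reads in a library and OLAH, the thioesterase that ends chains early in non-ruminant milk synthesis, had 0 reads in every library, and both were left out by the filter on low counts. Those 2 genes, THRSP, PRKAA1 and PRKAB2 were chosen after their values were seen.

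The NADPH enzymes IDH1 and ME1 differed widely in level and drew closer in lactation. IDH1 (chr2:209239735-209264865, 10 exons) lay at 165, 193 and 214 in late pregnancy and at 458, 537 and 623 in lactation, with a log2 change of 1.51 ± 0.07 (SE, adjusted p = 5.1e-13), which turns to -0.40 when libraries are scaled by size alone. ME1 (chr8:10275434-10461247, 13 exons) lay at 0.59, 0.69 and 0.91 in late pregnancy and at 3.46, 7.70 and 13.4 in lactation. Its change of 3.59 ± 0.24 (SE, adjusted p = 9e-11), or 12.0-fold, was the second largest of the 10 after FADS1. The lactation pools of ME1 differed almost 4-fold among themselves, with pool 1 of HM and MM at 13.05 and 13.4 and LM pool 1 at 3.46, and its coefficient of variation was 50.9%. IDH1 reads per kilobase exceeded those of ME1 213 to 361 times in late pregnancy and 35.1 to 152 times in lactation. The geometric mean of that ratio fell from 277 to 72.5 (exact permutation p = 0.0002, adjusted p = 0.0002). Each late pregnancy library held only 20 to 74 exon reads of ME1, and each lactation library 79 to 476.

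Of 10 other tested genes of NADPH supply, 3 were called higher and 4 lower with TMM, near the shares of all tested genes (33.1% and 35.2%). The counts were 2 and 7 with upper quartile scaling, and 1 and 9 by library size alone (all tested genes: 2.65% and 95.2%). PGD, an NADPH-yielding enzyme of the pentose phosphate pathway, rose from 52.4 ± 8.60 to 417 ± 36.0, a log2 change of 2.99 ± 0.09 (SE, adjusted p = 1.1e-15). TALDO1, transaldolase of the non-oxidative arm of that pathway, had 36.7 ± 2.65 and 41.4 ± 5.59 (log2 change 0.18, adjusted p = 0.032), and its states overlapped. The count of the list called higher was 2 with limma (pseudocount 1) and when some single libraries were left out, such as lactation pool 1 of LM. RPIA, ribose 5-phosphate isomerase, fell from 11.2 ± 1.30 to 2.77 ± 0.59, and ME2, a mitochondrial malic enzyme, from 3.27 ± 0.75 to 0.88 ± 0.25. PGLS, the lactonase, fell from 27.8 ± 2.91 to 22.6 ± 2.63 (log2 change -0.29), and its states overlapped.

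The desaturases held the largest change of the 10. SCD (chr22:20409237-20421242, 6 exons) lay at 201, 254 and 328 in late pregnancy and at 1298, 1533 and 2172 in lactation. All 6 lactation pools stood near or above 4 times the highest late pregnancy pool, and the 2 from HM were the highest. FADS1 (chr21:39652870-39665142, 12 exons) lay at 0.90, 1.51 and 2.15 in late pregnancy and at 14.1, 23.2 and 33.1 in lactation. FADS1 was thus a gene of low level that rose 15.0-fold, with a log2 change of 3.91 ± 0.18 (SE, adjusted p = 2.7e-13) that 97 of the 13345 tested genes exceeded. The change of SCD was 2.65 ± 0.11 (SE, adjusted p = 8.6e-14), or 6.26-fold. The ratio of SCD to FADS1 was 121 to 245 in late pregnancy and 52.3 to 106 in lactation, and its geometric mean fell from 174 to 71.8 (exact permutation p = 0.0002, adjusted p = 0.0002). SCD also gained on FASN, from 0.43 to 0.73 of FASN reads per kilobase in late pregnancy to 0.79 to 1.11 in lactation, and the geometric mean of that ratio rose 1.67-fold (exact permutation p = 0.0002, adjusted p = 0.0002). Of the reads on the exons of FADS1, 98.3% were placed uniquely, the lowest share of the 10.

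Among 6 other tested genes of desaturation, 2 were called higher and 2 lower with TMM (all tested genes: 33.1% and 35.2%). The counts were 1 and 5 by library size alone (all tested genes: 2.65% and 95.2%). FADS2, the desaturase that acts before FADS1 on polyunsaturated chains, rose from 0.40 ± 0.13 to 16.05 ± 5.603, a log2 change of 5.26 ± 0.20 (SE, adjusted p = 1.6e-14). DEGS1, which desaturates dihydroceramide, rose from 42.7 ± 1.83 to 83.5 ± 5.34. SCD5, a second stearoyl-CoA desaturase, fell from 23.6 ± 3.65 to 5.28 ± 1.28 (log2 change -2.13, adjusted p = 2e-11), the direction opposite to that of SCD. FADS3 fell from 4.97 ± 1.09 to 3.22 ± 0.79, and its states overlapped. In lactation the level of SCD5 lay far under that of SCD, and in late pregnancy it was already the lower of the pair.

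Of the 2 elongases, ELOVL6 rose and ELOVL5 was not called. ELOVL6 (chr6:15304507-15441099, 5 exons) lay at 3.77, 8.51 and 15.9 in late pregnancy and at 27.2, 39.0 and 93.3 in lactation, with a log2 change of 2.45 ± 0.27 (SE, adjusted p = 1e-07). It varied more than the other members in late pregnancy (coefficient of variation 41.99%), and HM pool 2 alone reached 93.3 in lactation, where the next highest pool was at 44.6. ELOVL5 (chr20:25186541-25217895, 12 exons) lay at 0.78, 0.91 and 1.02 in late pregnancy and at 0.63, 0.85 and 1.16 in lactation, with a log2 change of -0.08 ± 0.17 (SE, adjusted p = 0.77). That value rests on few reads, 16 to 38 a library before and 6 to 16 after lambing. Summed over the libraries, 18.8% of the reads on the ELOVL5 gene lay on its annotated exons, against a median of 82.9% over 12437 genes, of which 5% had under 35.8%. Counted over the whole gene, with 84 to 228 reads before and 27 to 60 after lambing, ELOVL5 was lower in lactation by a log2 change of -0.56 (adjusted p = 0.00014), where 35.0% of genes were called lower, so its call depends on which reads are counted. The ratio of ELOVL6 to ELOVL5 reads per kilobase was 4.38 to 19.2 in late pregnancy and 35.9 to 115 in lactation (geometric means 8.72 and 50.5, exact permutation p = 0.0002, adjusted p = 0.0002), and it carries the same limit.

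All 8 other tested genes of elongation were called with TMM, 3 higher and 5 lower (all tested genes: 33.1% and 35.2%). The counts were 1 and 6 by library size alone (all tested genes: 2.65% and 95.2%). ELOVL1, the elongase of saturated very long chains, rose from 14.4 ± 1.57 to 61.8 ± 6.14 (log2 change 2.10, adjusted p = 2.8e-15). HSD17B12 and TECR, the reductases of the elongation cycle, rose from 13.6 ± 1.16 to 56.0 ± 9.98 and from 62.5 ± 9.09 to 96.8 ± 13.05. ELOVL7 fell from 1.45 ± 0.20 to 0.69 ± 0.15. The 4 dehydratase genes that the files name PTPLA, PTPLB, PTPLAD1 and PTPLAD2 were all called lower, with log2 changes from -0.52 for PTPLB to -1.25 for PTPLAD1. PTPLAD2 was close to the threshold (adjusted p = 0.04) with at most 6 reads in a lactation library, and the elongation genes called lower were 4 rather than 5 with DESeq2, limma, the replicate block and when some single libraries were left out. PTPLB and PTPLAD2 were named after their values were seen.

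**Figure D2:**
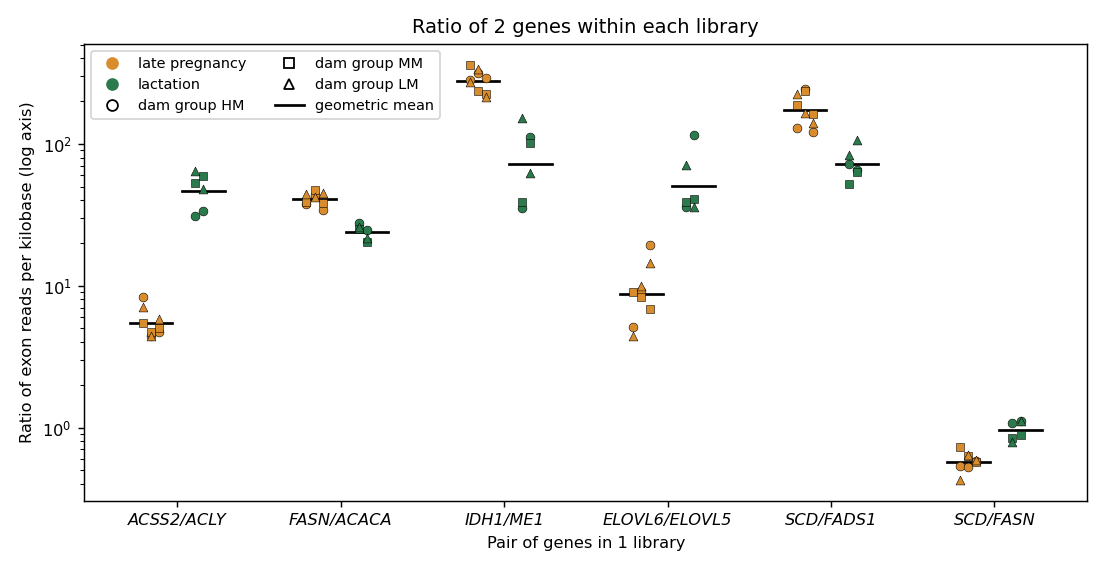
Ratio of the exon reads per kilobase of 2 genes (log axis) in each of the 15 libraries, late pregnancy in orange and lactation in green, with symbols for the dam groups and black lines for the geometric mean of a state. None of the 6 ratios overlaps between states; ACSS2/ACLY, ELOVL6/ELOVL5 and SCD/FASN are higher in lactation, and FASN/ACACA, IDH1/ME1 and SCD/FADS1 are lower.

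Levels per kilobase fell into nearly the same order in both states. FASN led in late pregnancy at 454 ± 42.1 (SD, n = 9), 1.72 times SCD at 263 ± 42.5, and IDH1 followed at 191 ± 18.6. SCD exceeded IDH1 in 9 of 9 of those libraries, although the ranges of the pair overlapped. FASN exceeded SCD in 9 of 9 late pregnancy libraries but in 3 of 6 lactation libraries, where the means of 1706 ± 255 and 1648 ± 314 (SD, n = 6) did not differ beyond their spread. ACSS2 and ACACA came next in both states, each well under the gene before it. ACACA exceeded ELOVL6 in 7 of 9 late pregnancy and 5 of 6 lactation libraries, and those neighbours overlapped. Other neighbours with overlapping ranges were ELOVL6 and ACLY, FADS1 and ELOVL5, and ELOVL5 and ME1 in late pregnancy, and ELOVL6 and FADS1, and ME1 and ACLY in lactation. The order changed at the low end, where ACLY went from seventh to ninth as FADS1 and ME1 passed it in 6 of 6 lactation libraries. ME1 was the lowest of the 10 in late pregnancy and ELOVL5 in lactation, and the level of ELOVL5 again rests on its annotated exons.

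The number of members called depended on how libraries were scaled, and of those called with TMM IDH1 alone changed sign. With library size alone, the median log2 change of all tested genes moved by -1.90, 353 of 13345 genes (2.65%) were called higher and 95.2% lower. On that scale 5 of the 10 members were called higher (ACACA, ACSS2, ME1, SCD and FADS1) and 3 lower (ACLY, IDH1 and ELOVL5), while FASN at 0.01 (adjusted p = 0.93) and ELOVL6 at 0.53 (adjusted p = 0.051) were not called. Scaling shifts all genes of a library alike, so changes taken relative to the median of all genes stay nearly the same by construction. They were 1.94 for FASN and 1.53 for IDH1 by library size alone, and 1.94 and 1.54 with TMM. Upper quartile scaling moved the median by -0.15 and changed the call of no member. The share of all exon reads that the 10 genes took was 0.69 to 0.88% in late pregnancy and 0.69 to 0.94% in lactation. Of the exon reads outside the milk protein genes, it was 0.80 to 1.05% in late pregnancy and 2.79 to 3.87% in lactation, with no overlap.

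Reads on the gene outside its annotated exons, which include reads of unspliced RNA, gave the same directions for the 8 genes that rose. Of 10344 genes tested on these reads, 29.0% were called higher and 29.0% lower, and of the 10 members 8 were called higher and 2 lower. ACACA rose by 2.49 ± 0.09 (SE) and ACSS2 by 2.16 ± 0.09 on the log2 scale, each less than on exons, where they had 2.67 and 2.66. FASN and SCD rose by 1.53 ± 0.17 and 2.13 ± 0.13. The log2 change outside exons was smaller than on exons for 7 of the 8 genes, the exception being ME1 at 3.73 ± 0.36 from 2 to 55 such reads a library. Reads outside exons had TMM scaling of their own, which enters such differences. How often the change is smaller over all genes was not counted. ACLY fell by 1.10 ± 0.21 on the log2 scale (adjusted p = 0.00011), from 32 to 113 such reads a library in late pregnancy to 4 to 24 in lactation. ELOVL5 fell by 0.75 ± 0.13 (adjusted p = 2.2e-05). The states did not overlap for any of the 10 on these reads, 8 higher and 2 lower in lactation, a pattern that 15.1% of tested genes showed upwards and 13.9% downwards. Reads across exon junctions, compared without a test, had a mean log2 difference of -0.44 for ACLY, -0.17 for ELOVL5 and between 1.68 for IDH1 and 4.06 for FADS1 for the 8 others. The library kit does not keep the strand, so reads of an antisense or overlapping transcript cannot be told from those of the gene.

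**Figure D3:**
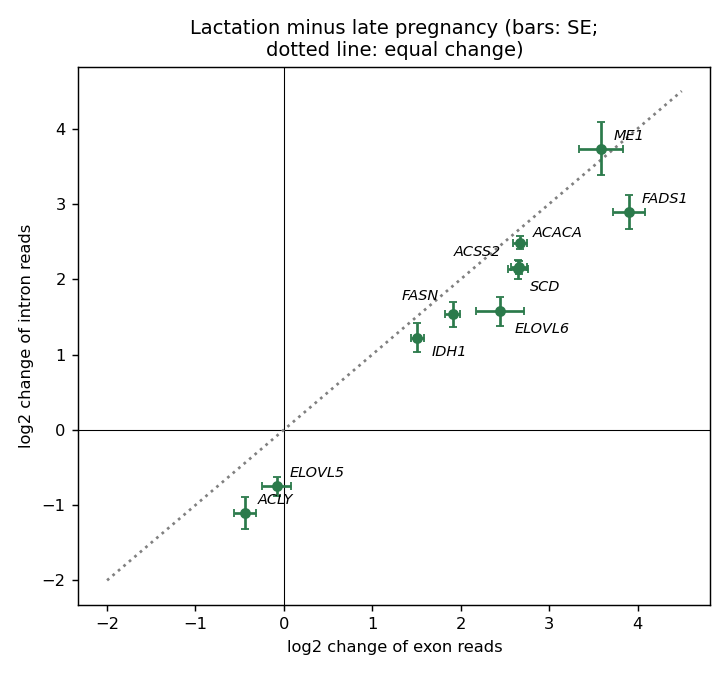
The log2 change between lactation and late pregnancy of exon reads (horizontal) and of reads on the same gene outside its exons (vertical) for each of the 10 genes, with bars for the SE and a dotted line of equal change. Each kind of read has its own TMM scaling. The 8 genes that rose lie in the upper right, ME1 alone above the line, and ACLY and ELOVL5 lie below 0 on the vertical axis at -1.10 and -0.75.

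The diet of the ewes' dams in early gestation was compared to ask whether it altered the gland of the daughters. In late pregnancy no gene of 13747 passed the adjusted test in edgeR (0.0%), 571 had an unadjusted p under 0.05 and DESeq2 called 20 (0.145%), none of them a member. ACACA had the lowest unadjusted p of the 10, 0.047 (adjusted p = 1.00), with means of 12.2 in HM, 10.8 in MM and 10.2 in LM over 3 pools each. The log2 differences of the 10 genes from MM lay between -0.19 for SCD and 0.26 for ELOVL6 in HM, and between -0.26 for ELOVL5 and 0.11 for ME1 in LM.

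The change from late pregnancy to lactation was called higher for 8 of the 10 genes within each dam group, where 23.7% of tested genes were called higher in HM, 23.7% in MM and 25.3% in LM. ACLY differed in value between the groups, in which 22.8% (HM), 23.6% (MM) and 25.8% (LM) of tested genes were called lower. Its log2 change was 0.00 ± 0.19 (SE, adjusted p = 0.99) in HM, -0.74 ± 0.18 (adjusted p = 0.0033) in MM and -0.56 ± 0.19 (adjusted p = 0.023) in LM, and the call in LM was lost without lactation pool 1 or late pregnancy pool 2 or 3 of that group. SCD rose by 2.99 ± 0.17 in HM, 2.64 ± 0.16 in LM and 2.27 ± 0.16 in MM. Its HM lactation pools, at 1856 and 2172, lay above the other 4, which ran from 1298 to 1565. By library size alone, the members called higher and lower were 6 and 3 in HM, 4 and 3 in MM and 5 and 3 in LM, where 2.24%, 2.15% and 2.29% of tested genes were called higher and 91.6%, 94.1% and 93.6% lower. The test of the difference itself, the interaction of state and dam group, had the lowest unadjusted p values of the 10 for these genes, 0.024 for SCD and 0.034 for ACLY, and neither passed after adjustment over all genes (adjusted p = 0.74 for both). No gene of 13345 passed it (0.0%), 876 had an unadjusted p under 0.05, and DESeq2 called 21 (0.157%), none of them a member.

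**Figure D4:**
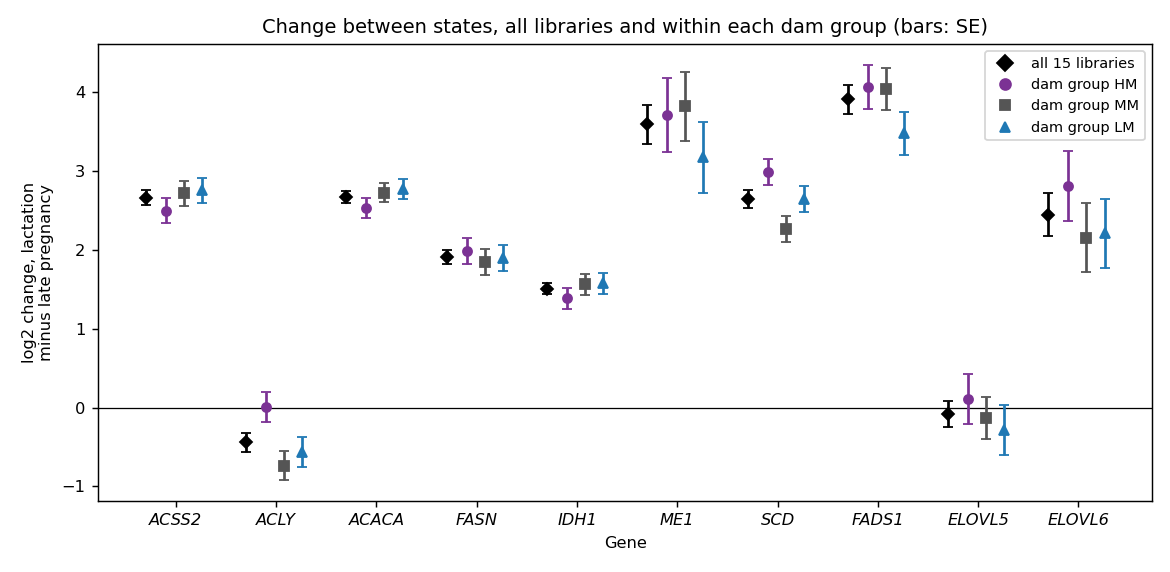
The log2 change from late pregnancy to lactation of each gene, with its SE, over all 15 libraries (black) and within the dam groups HM, MM and LM. The 3 groups lie close together for FASN, ACACA and IDH1, while ACLY is at 0.00 in HM and -0.74 in MM, and SCD at 2.99 in HM and 2.27 in MM.

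Apart from the states, the members did not vary as 1 block from pool to pool. After the mean of each state was taken off log2(CPM + 1), the 45 pairs of members had Pearson correlations from -0.50 to 0.77 over the 15 libraries, with a median of 0.15, beside a median of 0.00 over pairs of tested genes. These are descriptions, since all points of a pair share a library and its scaling. The mean of a dam group was not taken off, so differences between dam groups remain in these correlations. ACLY and SCD had the highest (0.77), followed by SCD and ELOVL6 (0.65), ELOVL6 and FADS1 (0.62), SCD and FADS1 (0.56), ME1 and ELOVL5 (0.56), and FASN and ACACA (0.56). IDH1 and ELOVL5 had the lowest. SCD (0.77) and FADS1 (0.76) followed the mean of the other 9 members most closely, whereas ACSS2 (-0.18), ME1 (-0.07) and IDH1 (0.03) did not follow it. The tested genes outside the 10 whose deviations were most like the members' mean were AAGAB (0.90), EIF4G3 (0.89), LOC101121621 (0.87), MSMO1, a sterol oxidase of cholesterol synthesis (0.84), and RDH11, a retinol dehydrogenase (0.84). They were picked as the highest among all tested genes outside the 10, and no test was made. Deviations were averaged without standardizing, so the more variable members weigh more in that mean.

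Of 11 tested regulators of lipogenic genes, 7 were called higher and 2 lower with TMM (all tested genes: 33.1% and 35.2%). The counts were 6 and 4 with upper quartile scaling, and 1 and 10 by library size alone (all tested genes: 2.65% and 95.2%). INSIG1, which retains the SREBP and SCAP complex in the endoplasmic reticulum, rose from 16.4 ± 4.96 (SD, n = 9) to 521 ± 96.9 (SD, n = 6), a log2 change of 4.99 ± 0.18 (SE, adjusted p = 4.9e-15). PPARD, a nuclear receptor for fatty acids, rose from 5.92 ± 0.55 to 14.3 ± 2.48. SREBF1, which encodes the SREBP that activates lipogenic genes, rose from 21.2 ± 1.90 to 39.1 ± 5.0. SCAP, its escort to the Golgi, fell from 7.88 ± 0.39 to 6.17 ± 0.52. MBTPS1, the protease that first cuts SREBP there, fell from 14.1 ± 0.65 to 11.8 ± 1.12, and its states overlapped. PPARG was at 5.29 ± 1.18 and 4.49 ± 0.91 and was not called (adjusted p = 0.19), a gene chosen after its value was seen. Over the 6 lists, 28 of 58 tested genes were called higher and 16 lower, with a median log2 change of 0.09.

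**Figure D5:**
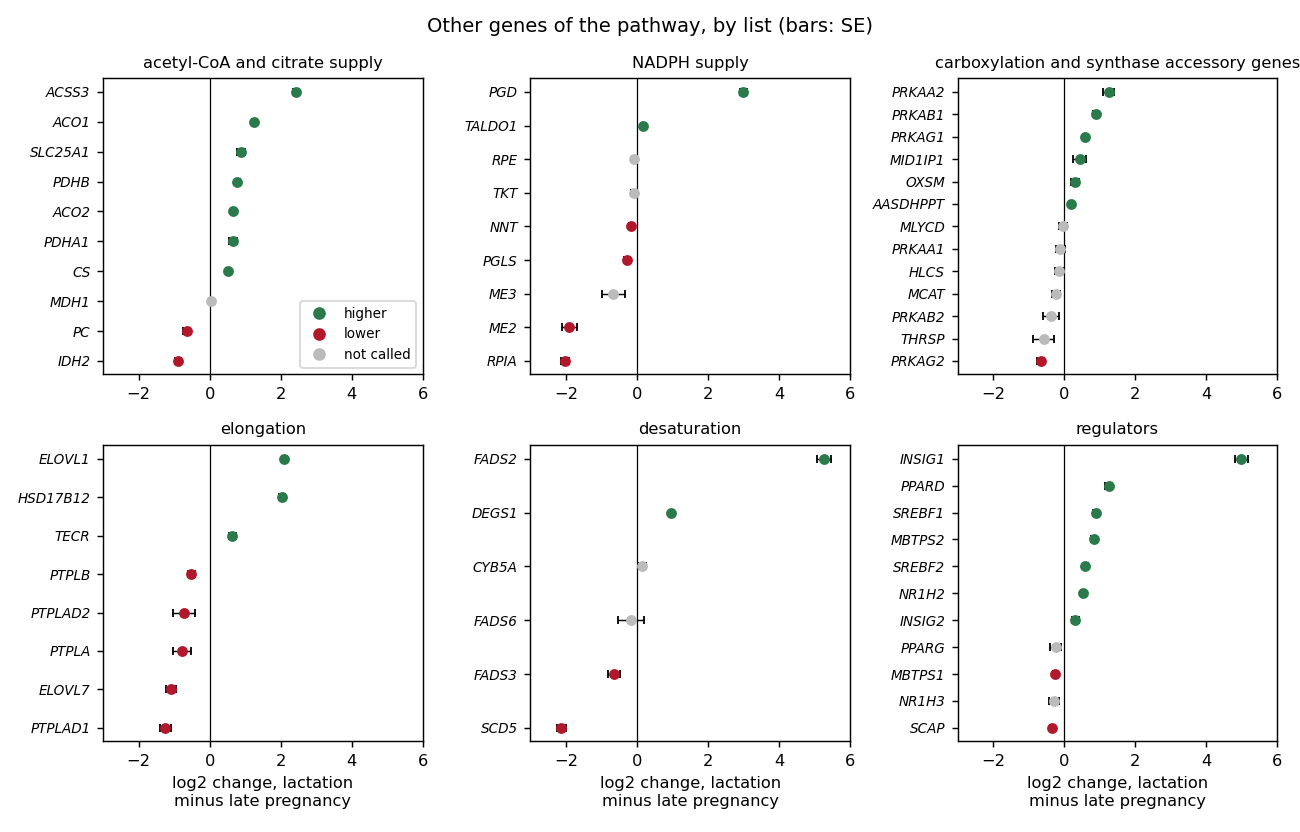
The log2 change from late pregnancy to lactation, with its SE, of the tested genes named in 6 lists of the same pathway, green where called higher, red where called lower and grey where not called. FADS2 at 5.26 and INSIG1 at 4.99 lie farthest to the right, and SCD5 at -2.13 and RPIA at -2.02 farthest to the left.

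Markers of other cell types moved between the states as well, where 33.1% of all tested genes were called higher and 35.2% lower. Of adipocyte markers, a cell type that also expresses lipogenic genes, 0 of 5 tested were called, and the summed level of the 9 found was 541 to 1070.1 in late pregnancy and 734 to 973 in lactation, almost all of it FABP4. The adipocyte gene ADIPOQ was at 3.95 ± 1.98 and 2.95 ± 1.28, and PLIN1, LEP, PCK1 and RETN were too low to be tested. Of fibroblast markers, 4 of 5 were called lower (sum 138 to 228 and 99.2 to 159), of endothelial markers 4 of 5 (48.2 to 65.9 and 28.7 to 39.6), and of leukocyte markers 5 of 8, with 2 higher (41.4 to 53.6 and 33.2 to 44.2). Luminal epithelial markers had a sum of 1205 to 1495 in late pregnancy and 1773 to 1932 in lactation. Of them KRT19, ELF5, EPCAM and KRT18 rose, and KRT7 and CLDN4 fell. Most of that sum was KRT19 (means 456 and 694) and ELF5 (means 430 and 753). Myoepithelial markers had 3 of 6 higher and 2 lower (260.2 to 294 and 236 to 353). All 7 milk protein genes were called higher. Markers named singly were chosen after their values were seen. By library size alone no marker gene outside the milk proteins was called higher, where 2.65% of all tested genes were called higher and 95.2% lower. The part of cell make-up in the changes of the 10 genes was not tested.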

How the data were processed

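Mammary RNA-seq reads were mapped in CLC Genomics Workbench by the authors, per the study's methods. The submitters' processing notes name the sheep genome Oar 3.1 and the methods name another version, so coordinates are given as the deposited table has them. The deposited counts are reads on exons, uniquely placed exon reads, reads on the whole gene and reads across exon junctions, without normalization. The deposited RPKM were computed by the authors from exon length and the total of reads on genes, and a further deposited column holds RPKM that the authors quantile-normalized across libraries. Recomputed RPKM differed from the deposited values by at most 1.9e-06 of their size. Columns with the authors' own comparison of the states (fold change, difference, test statistic and p-values) were not used.

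Exon reads (reads on the whole gene for the 5583 features without a transcript) were tested with edgeR 4.0.16 in R 4.3.3 (quasi-likelihood F-test, TMM, filterByExpr by state, Benjamini-Hochberg over all tested genes, called under 0.05), without covariates, over all 15 libraries, and the script was tested on simulated data. The same test was run within dam groups, for their interaction with state, for dam groups in late pregnancy and for whole-gene less exon reads. The 6 ratios of reads per kilobase were tested exactly. DESeq2 1.42.0, limma 3.58.1 on log2(quantile-normalized RPKM + 1 or + 0.1), other scalings, filters, reads and covariates, and leaving out each library were alternatives. Reads carry no molecular identifiers, and the spread between libraries measures the precision. A lane stands in each column name, but the descriptions say that the reads of both lanes were combined, so it served only as a check. The 10 members, the lists of pathway and marker genes and the ratios were chosen with earlier results of these data known. Named genes are the 10, up to 3 in each direction from each list with the largest log2 change among called genes with at least 1 CPM in a state, and the 5 genes most like the members' mean. Of the lists, 1 gene is counted but not reported here.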

Additional observations from a re-analysis of the deposited data

Results flagged for a closer look

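Among the 10 genes in each state, 20 groups of values were examined for a library far from the others, where chance gives about 1 in 20. In lactation, ELOVL6 in HM pool 2 was at 93.3 TMM-scaled RPKM, and its gap to the next pool was 73.7% of the range of the 6 pools. In late pregnancy, ME1 in LM pool 3 was at 0.91, with a gap of 51.5% of the range of the 9 pools. Without HM pool 2 the log2 change of ELOVL6 was the lowest of those with 1 library left out, 2.13, and was still called. The cause of either value was not tested.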

How the results depend on the processing

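Leaving out 1 library changed the call of no member between the states: 8 were higher and 1 lower each time, with ACLY between -0.51 and -0.36 on the log2 scale (adjusted p up to 0.015). Library size alone gave 5 members higher and 3 lower, beside 2.65% and 95.2% of all genes, with IDH1 at -0.40, and 5 pathway list genes higher and 52 lower. Within dam groups, added after seeing the data, it gave 4 higher and 3 lower in MM, 5 and 3 in LM and 6 and 3 in HM, where 2.15 to 2.29% of all genes were called higher and 91.6 to 94.1% lower. The members called lower in LM ran from 0 to 1 with a library left out. Whole-gene reads gave 2 members lower. ELOVL5 turned to 0.17 and 0.10 with limma on quantile-normalized RPKM (pseudocounts 0.1 and 1), called in neither, and had too few reads to be tested with at least 10 in every library.

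Whether pool numbers pair the states could not be decided. Correlations of same-numbered pools ran from -0.02 to 0.07. The best match among the 3 late pregnancy pools of the dam group had the same number in 4 of 6. Deviations of the 2 lactation pools of a dam group mirror each other, so the 6 values are not independent. With the replicate block, 8464 genes were called and the members gave 8 higher and 1 lower again. The 6 ratios in paired form were 3.06 for ACSS2/ACLY, -0.81 for FASN/ACACA, -2.04 for IDH1/ME1, 2.79 for ELOVL6/ELOVL5, -1.43 for SCD/FADS1 and 0.75 for SCD/FASN (log2, exact sign-flip test, adjusted p = 0.031 each, the smallest it can give). No ratio overlapped between the states, so any pairing of pools gives that p, and the paired form adds no support. Among the libraries with lane 7 in the column name, and among those with lane 8, every member kept its sign, with ACLY at -0.26 and -0.59. Lane 8 stood in the column names of all LM libraries and lane 7 in those of most HM libraries. That split thus partly follows dam group. Depth limits ELOVL5 and ME1 most.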
